A study of Mus musculus with 6 samples.

Results

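YAP and its paralogue TAZ are transcriptional coactivators that cannot bind DNA themselves and reach their target genes through the TEAD family of DNA-binding factors. The Hippo kinases MST1/2 and LATS1/2 phosphorylate YAP and TAZ and keep them out of the nucleus, while attachment to the matrix through integrins and tension in the actin cytoskeleton favour their nuclear, active form. In epidermis and squamous carcinoma YAP/TEAD activity is known for sustaining basal keratinocyte growth. The 10 genes described here, Ccn1, Ccn2, Ankrd1, Amotl1, Amotl2, Axl, Ajuba, Lats2, Crim1 and Ptpn14, are commonly used as YAP/TEAD targets. They were taken by name from 37991 listed genes, with Cyr61, Ctgf and Jub accepted as older names of Ccn1, Ccn2 and Ajuba, and all 10 were found and passed the filter on low counts.

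RNA was sequenced from mouse tumours of a cutaneous squamous cell carcinoma line, a cancer of skin keratinocytes, in 2 groups. The group called wild type here (genotype label Kindlin-1 WT) holds 3 tumour libraries that express Kindlin-1, and the group called null (Kindlin-1 Null) holds 3 from tumours with Kindlin-1 knocked out. Kindlin-1, the product of Fermt1, binds the tails of beta integrins and helps to activate them, and the comparison asked how expression differs when it is lost. The labels give no treatment, host strain, age, time of growth or number of cell clones, so effects of a single clone and of genotype cannot be told apart.

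Depth was uneven, with 161711 reads in genes for wild-type library 2 and 31487255 for null library 2 at the extremes. For Fermt1, the knocked-out gene, the wild-type libraries 1 to 3 gave 16, 2 and 1040 reads and the null ones 0, 2 and 2, or 29.9 ± 30.3 against 0.152 ± 0.211 CPM (read counts brought to a common library size by TMM scaling; SD, n = 3), in the direction of the labels. By mouse numbers in the titles, wild-type libraries 1 and 2 share an animal number, as do null libraries 2 and 3, although the deposited file of the latter bears another number. If a number is an animal, n = 3 counts libraries, and p-values then measure the spread between these libraries, which may be partly technical. Some keratinocyte genes were sparse: Krt5 had 5, 0 and 5 reads in the wild-type and 0, 5 and 2 in the null libraries. Col17a1 had 7 reads over the wild-type and 22 over the null libraries. Others were not, with 486 and 370 reads for Krt14 and 358 and 809 for Trp63. Of the 12 keratinocyte markers listed, 8 were tested and 2 basal keratins passed in opposite directions. Krt14 fell, from 36.2 ± 9.5 CPM with Kindlin-1 to 8.6 ± 3.03 CPM without, and Krt15 rose, from 3.32 ± 3.53 CPM with it to 19.4 ± 8.1 CPM without it (SD over 3 libraries; adjusted p by edgeR 0.01 and 0.0283). Trp63 (15 ± 9.06 and 22.9 ± 4.17 CPM) and Itga6 (75.4 ± 17 and 111.2 ± 11 CPM) did not pass. In such bulk samples fewer cells of a type and less RNA per cell cannot be told apart.

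The promoter stretches that carry the letters of a TEAD core are given first, since TEAD factors are the DNA-binding partners of YAP. The core was searched as GGAATG on both strands (CATTCC on the opposite strand) in the 250 bases before each start in RefSeq's promoter table (build GRCm38, whereas the submitters' processing notes name mm9). Sequences were matched for 9 of the 10 members, Ccn2 being the exception, and Lats2 has 2 starts in the table. Of these 9 genes 7 held at least 1 core, while 12.6% of all 32851 promoters in the table did. Lats2 and Amotl1 had no match, which says only that these letters are not in this window. None of the 9 held the AP-1 motif TGANTCA, searched likewise and found in 6.75% of all promoters. The end of GGAATG and the start of TGANTCA can share the letters TG. A match is a run of letters and was not measured as a bound site. Some of these windows also overlap annotated exons (GENCODE M21, any gene). The largest overlap was 250 bases for Ankrd1, whose whole window, with both cores, thus lies in an annotated exon. For Amotl2, Amotl1 and Crim1 it was 136, 50 and 28 bases. Each window below holds 30 bases, 5′ to 3′ on the strand of the gene, with the core in capitals.
Ccn1 (chr3:145650071-145650100, - strand, match from base 103 to base 98 before the start): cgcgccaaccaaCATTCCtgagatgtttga
Axl (chr7:25788949-25788978, - strand, match from base 233 to base 228 before the start): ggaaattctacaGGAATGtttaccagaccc
Crim1 (chr17:78200157-78200186, + strand, match from base 79 to base 74 before the start): agggcgggggggGGAATGaggtaggatggg
Ankrd1 (chr19:36120037-36120066, - strand, match from base 210 to base 205 before the start): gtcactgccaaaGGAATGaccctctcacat
Ankrd1 (chr19:36119950-36119979, - strand, match from base 123 to base 118 before the start): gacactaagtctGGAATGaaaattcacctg
Ajuba (chr14:54577830-54577859, - strand, match from base 186 to base 181 before the start): cgttgatggataCATTCCacagtgcccctc
Ajuba (chr14:54577808-54577837, - strand, match from base 164 to base 159 before the start): tgcccctccgcgCATTCCaactgtaaacaa
Amotl2 (chr9:102717727-102717756, + strand, match from base 65 to base 60 before the start): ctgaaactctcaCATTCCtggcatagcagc
Ptpn14 (chr1:189728110-189728139, + strand, match from base 146 to base 141 before the start): cctccccggacgCATTCCtggcccgcccag
Ankrd1 and Ajuba each carried 2 cores and the other 5 genes carried 1. Cores on the strand of the gene (GGAATG) occurred in Axl, Crim1 and Ankrd1, and cores on the opposite strand (CATTCC) in Ccn1, Ajuba, Amotl2 and Ptpn14.

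**Figure D1:**
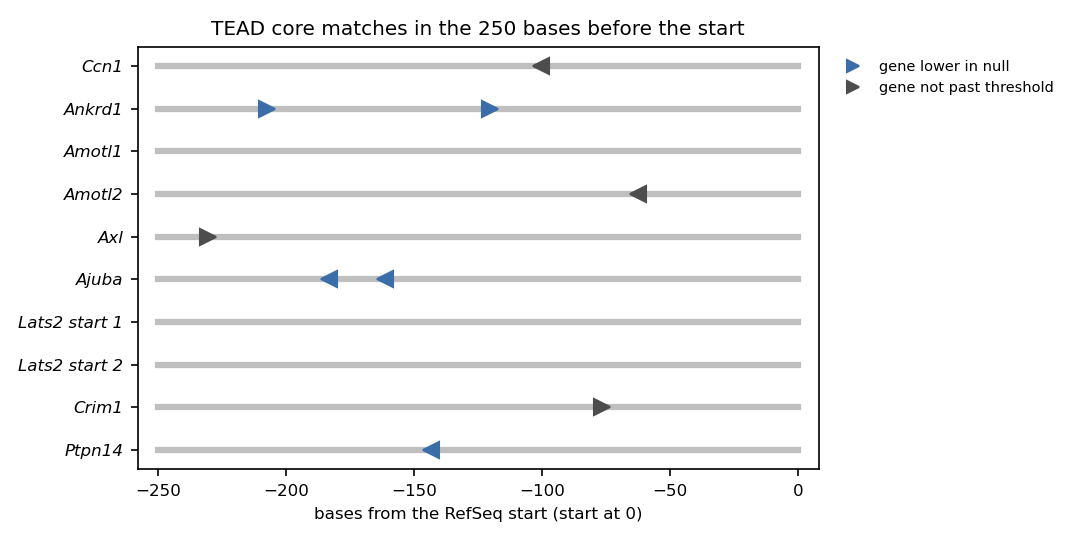
Position of each TEAD core (arrowheads, pointing right for GGAATG on the strand of the gene and left for the opposite strand) in the 250 bases before the RefSeq start of 9 members, with distance from the start in bases on the x axis. Of the 4 genes that were lower in null tumours, 3 have a sequence here and each holds a core. So do Ccn1, Axl, Crim1 and Amotl2, which did not pass the test.

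The whole upstream stretch is shown for 3 genes to set a pair that was lower in null tumours, Ajuba (chr14:54577662-54577911) and Ptpn14 (chr1:189728018-189728267), beside 1 that was not, Ccn1 (chr3:145649986-145650235, all GRCm38). No annotated exon lies in these 3 stretches, and capitals again mark the core.
Ajuba: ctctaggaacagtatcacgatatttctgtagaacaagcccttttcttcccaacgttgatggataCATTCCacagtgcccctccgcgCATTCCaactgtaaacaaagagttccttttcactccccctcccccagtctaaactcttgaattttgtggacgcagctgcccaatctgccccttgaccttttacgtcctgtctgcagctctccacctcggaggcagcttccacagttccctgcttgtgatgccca
Ptpn14: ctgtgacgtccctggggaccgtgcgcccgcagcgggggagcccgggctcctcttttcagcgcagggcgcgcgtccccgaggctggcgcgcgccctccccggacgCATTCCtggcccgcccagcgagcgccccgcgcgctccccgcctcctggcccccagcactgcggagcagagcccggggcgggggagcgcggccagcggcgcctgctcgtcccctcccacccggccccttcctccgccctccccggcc
Ccn1: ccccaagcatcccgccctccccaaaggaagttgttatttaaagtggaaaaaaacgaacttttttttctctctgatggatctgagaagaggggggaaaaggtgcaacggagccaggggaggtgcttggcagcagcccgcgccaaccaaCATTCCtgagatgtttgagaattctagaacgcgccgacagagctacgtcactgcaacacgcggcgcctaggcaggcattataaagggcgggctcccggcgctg
A core was thus present both in genes that fell and in genes that did not pass. Another list of 14 YAP/TAZ targets named in published work gave a different picture, since 0 of its 8 genes with a sequence held the core in this window.

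Across the 10 targets, 4 fell in null tumours (Ccn2, Ankrd1, Ajuba and Ptpn14), 0 rose and 6 did not pass (edgeR's quasi-likelihood test, Benjamini-Hochberg adjusted p under 0.05 over 11887 genes). The background was 5.79% of all tested genes called in either direction and 3.52% called lower. At an unadjusted p under 0.05, 5 members were lower and 1, Crim1, was higher, where 25.1% of all tested genes were under that p (13% lower and 12.1% higher). DESeq2 called 2 members lower and 0 higher, and 3.12% of the 12722 genes with an adjusted p lower. The median log2 fold change (null minus wild type) of the 10 was -0.68, against 0.01 over all tested genes. All 3 null values lay under all 3 wild-type values for 5 members, the 4 above and Axl, and the same held for 14.3% of all tested genes. Leaving out single libraries left 0 to 4 members called, with 1 without wild-type library 3, 0 without null library 1 (6 at an unadjusted p under 0.05) and 1 without null library 3. By the titles, wild-type library 3 and null library 1 are each the only library of their mouse number. Without either, the libraries left in its group share a number. The count was 2 with DESeq2, 2 with the libraries of a shared mouse number summed and 2 with the wild-type pair alone summed.

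**Figure D2:**
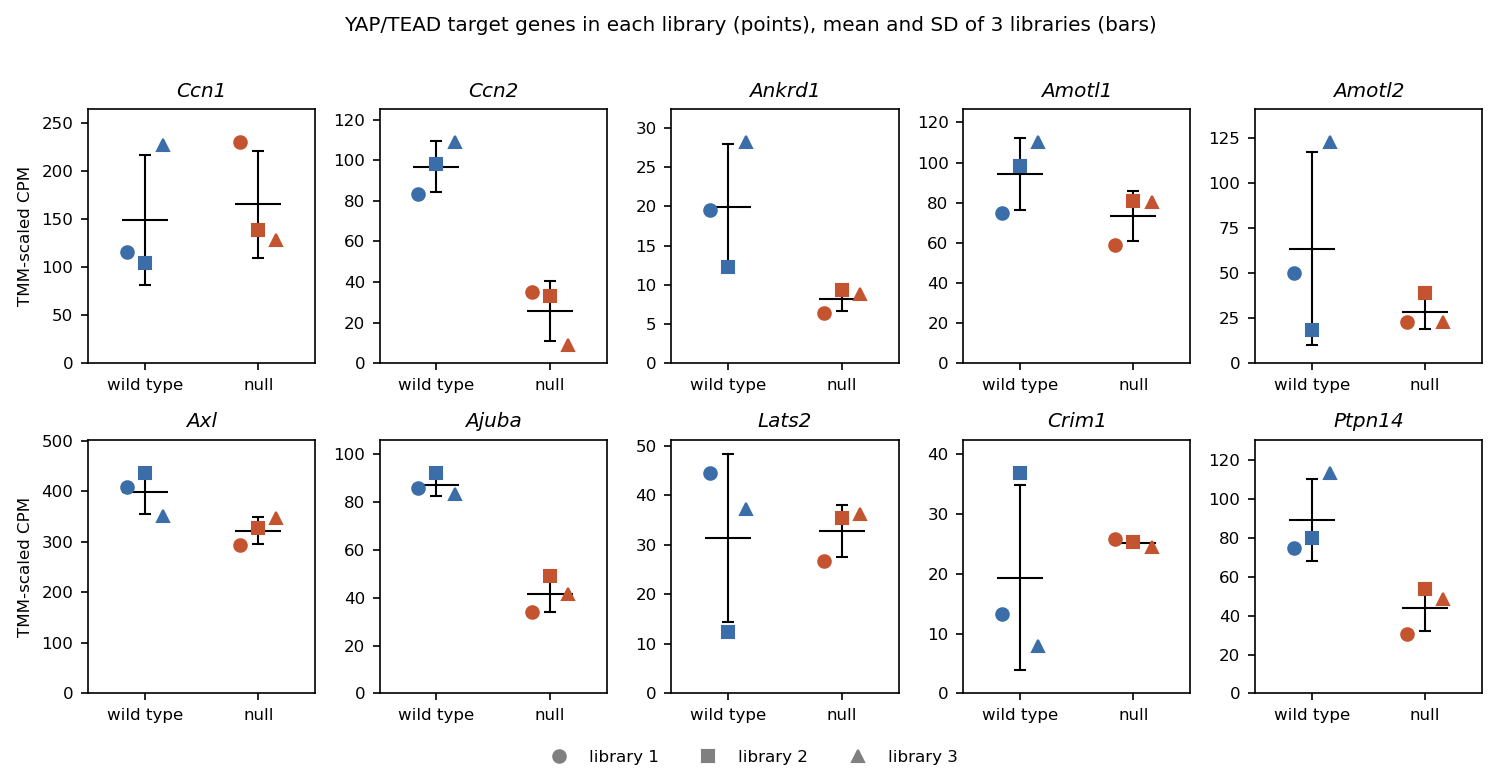
TMM-scaled CPM (y axis, linear, from 0) of each target in the 3 wild-type (blue) and 3 null (red) libraries, with the mean and SD of each group as bars and the library number as the symbol shape. Ccn2, Ankrd1, Axl, Ajuba and Ptpn14 have all null points under all wild-type points, while Ccn1, Amotl1, Amotl2, Lats2 and Crim1 overlap.

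Of the secreted targets, Ccn2 fell and its paralogue Ccn1 did not pass. Both encode CCN matricellular proteins that bind integrins and growth factors, and Ccn2 is also known as connective tissue growth factor. Ccn2 (ENSMUSG00000019997) stood at 83.6, 98.3 and 108.7 CPM in wild-type libraries 1 to 3 and at 35.0, 33.3 and 8.85 CPM in null libraries 1 to 3. The lowest wild-type value was thus above the highest null value, and null library 3 lay far below the other two. It was 3.89-fold lower in null tumours (log2 fold change -1.96, SE 0.41, edgeR adjusted p = 0.0189). Leaving out wild-type library 3 (edgeR adjusted p = 0.0959) or null library 1 (0.0692) ended the call, as did limma-voom with a random effect for the mouse (adjusted p = 0.249), while the log2 fold change stayed between -2.35 and -1.53 in all 15 alternative fits. Ccn1 (ENSMUSG00000028195) stood at 115.6, 104.4 and 226.9 CPM in wild type and at 229.4, 138.3 and 127.9 CPM in null tumours. The high values, wild-type library 3 and null library 1, were in opposite groups and the ranges overlapped. Its log2 fold change was 0.06 (95% interval -0.66 to 0.78, edgeR adjusted p = 0.927), with a sign that turned in 6 of the 15 alternatives.

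The relation of these paralogues within a library does not depend on how libraries are scaled, and this ratio was looked at after the values were seen. For each read of Ccn1 there were 0.723, 0.941 and 0.479 reads of Ccn2 in the wild-type libraries, in order, against 0.153, 0.241 and 0.0692 in the null ones. Each null ratio was below each wild-type ratio. The mean log2 ratio was -0.54 in wild type and -2.87 in null tumours, a difference of -2.33 (exact permutation test, two-sided p = 0.1, the smallest that 3 against 3 libraries can give). With log2 fold changes of -1.96 for Ccn2 and 0.06 for Ccn1, this difference largely restates the Ccn2 result and is no separate one. Wild-type library 2 contributed 16 and 17 reads of the pair. A 665-base stretch of Ccn2's 2861 exonic bases overlaps Gm15270 on the opposite strand, and that gene had 32 reads in all libraries together.

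No other CCN gene passed. Of Ccn3, Ccn4, Ccn5 and Ccn6, 3 were tested and 0 were called (edgeR), with 2 lower and 0 higher at an unadjusted p under 0.05 and 0 by DESeq2. The shares of all tested genes were 5.79% called by edgeR and 13% lower at that unadjusted p. Ccn4, known as WISP1, stood at 135 ± 6.61 and 74 ± 19.9 CPM (SD, n = 3; log2 fold change -0.86, edgeR adjusted p = 0.0651). Ccn3 and Ccn5 stood at log2 fold changes of -1.35 and 0.51.

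Axl and Crim1 are the membrane proteins of the group, and neither passed. Axl (ENSMUSG00000002602), a receptor tyrosine kinase of the TAM family activated by Gas6, stood at 408.4, 436.2 and 350.3 CPM in wild type and 292.9, 327.0 and 346.3 CPM in null tumours. The groups did not overlap, but wild-type library 3 and null library 3 lay almost level. The log2 fold change was -0.30 (95% interval -0.83 to 0.24, edgeR adjusted p = 0.478). Of the relatives and ligands Tyro3, Mertk, Gas6 and Pros1, 0 of 4 passed (edgeR), with 1 higher and 0 lower at an unadjusted p under 0.05, namely Gas6. Among all tested genes 5.79% passed and 12.1% were higher at that unadjusted p. Gas6 stood at 300 ± 33.1 and 488.5 ± 54.4 CPM (log2 fold change 0.72, edgeR adjusted p = 0.105), and DESeq2 called 1 of the 4 higher. Tyro3, Pros1 and Mertk had log2 fold changes of 0.21, 0.03 and -0.0038.

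Crim1 (ENSMUSG00000024074), a transmembrane protein that binds growth factors of the TGF-beta superfamily, stood at 13.3, 36.9 and 7.86 CPM in wild type and 25.8, 25.3 and 24.4 CPM in null tumours. The null values were close together and lay inside the wild-type range, whose top was wild-type library 2. That library had 6 Crim1 reads (95% exact Poisson interval 13.5 to 80.2 CPM, counting error only). The fitted log2 fold change of 1.07 (95% interval 0.13 to 2.01) did not pass (edgeR adjusted p = 0.148). It was called higher by limma-voom with a random effect for the mouse (1.56, adjusted p = 0.0209). In the annotation used for names 123 of its 5995 exonic bases overlap Fez2 on the opposite strand. Fez2 had 3830 reads in all libraries together, and the strand setting of the counts is not known.

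Ankrd1 (ENSMUSG00000024803) encodes an ankyrin-repeat protein of the nucleus and of the muscle sarcomere, and is induced by YAP in many cell types. It stood at 19.5, 12.3 and 28.1 CPM in wild type and 6.45, 9.32 and 8.85 CPM in null tumours. All null values were lower, but the lowest wild-type value rests on 2 reads of library 2 (95% exact Poisson interval 1.49 to 44.4 CPM). The gene fell 2.68-fold (log2 fold change -1.42, SE 0.35, edgeR adjusted p = 0.0329). It no longer passed without wild-type library 3 (edgeR log2 fold change -1.08 and adjusted p = 0.205) and without null library 1, 2 or 3 (0.107, 0.0725 and 0.1226). DESeq2 (adjusted p = 0.109) and the sum of both pairs of a shared mouse number (edgeR, 0.0638) also lost it.

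Skeletal muscle genes were lower in the same null tumours. Of 12 muscle markers 11 were tested and all 11 fell, beside 3.52% of all tested genes called lower. Their median log2 fold change was -3.61, and none of the 12 was at 0 reads in all libraries. The summed level of the 12 was 1454, 774 and 547 CPM in wild-type libraries 1 to 3 and 66.3, 108.1 and 39.4 CPM in null libraries 1 to 3. Within the wild-type group Ankrd1 was highest in library 3, where the muscle sum was lowest. The exact Poisson intervals of Ankrd1 in wild-type libraries 1 (12.6 to 28.8 CPM) and 2 (1.49 to 44.4 CPM) reach the library 3 value. The order of Ankrd1 within this group is thus within counting error, and nothing is drawn from it. Ankrd1 had 0.0702, 0.111 and 0.22 reads for each read of Des, the muscle intermediate filament desmin, in wild type and 0.538, 0.519 and 0.726 in null tumours. This ratio, chosen after the values were seen, was higher in each null library (difference of mean log2 ratios 2.29, null -0.77 and wild type -3.06; exact permutation p = 0.1, two-sided, the smallest possible). The rise of the ratio restates that Des fell further (log2 fold change -3.61) than Ankrd1 (-1.42), and is no separate result. The part of muscle RNA in the Ankrd1 result was not tested. Of its muscle relatives Ankrd2 and Ankrd23 only the latter was tested, and its log2 fold change was -1.27 (edgeR adjusted p = 0.0772). For each read of Ankrd23 there were 0.287, 2.0 and 0.831 reads of Ankrd1 in wild type and 0.389, 0.481 and 0.542 in null tumours. This ratio overlapped between groups (exact permutation p = 0.5, two-sided), and wild-type library 2 had 2 and 1 reads of Ankrd1 and Ankrd23.

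Of the 5 targets described below as acting back on YAP, namely Ajuba, Ptpn14, Amotl1, Amotl2 and Lats2, 2 fell and 3 did not pass. Ajuba (ENSMUSG00000022178), a LIM-domain protein that restrains LATS kinases, stood at 85.9, 92.2 and 83.1 CPM in wild type and 34.1, 49.1 and 41.7 CPM in null tumours. The wild-type values lay close together and well above every null value. Ajuba fell 2.02-fold (log2 fold change -1.02, SE 0.24, edgeR adjusted p = 0.0303). In the fits that each left out 1 library its log2 fold change ranged from -1.19 to -0.92. Ajuba no longer passed without wild-type library 1 (0.0525) or 2 (0.0534), without null library 1 (0.1016) or 3 (0.1251), and with both pairs (0.136) or the wild-type pair (0.0534) of a shared number summed (all edgeR adjusted p). The other family genes Limd1 and Wtip did not pass.

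Ptpn14 (ENSMUSG00000026604), a tyrosine phosphatase that binds YAP and holds it in the cytoplasm, stood at 75.0, 79.9 and 113.6 CPM in wild type and 30.4, 53.6 and 48.4 CPM in null tumours. The groups did not overlap, with wild-type library 3 at the top and null library 1 at the bottom. It fell 2.04-fold (log2 fold change -1.03, SE 0.28) at an edgeR adjusted p of 0.0489, just inside the threshold. Of the 6 fits with 1 library left out only that without wild-type library 1 kept the call. Without wild-type library 2 or 3 the edgeR adjusted p was 0.0642 or 0.188, and without null library 1, 2 or 3 it was 0.163, 0.0573 or 0.131. The call was also lost with DESeq2 (adjusted p = 0.0533), with both pairs summed (edgeR, 0.0904) and with the wild-type pair summed (edgeR, 0.0666).

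The angiomotins are junction and actin-binding proteins that bind YAP, and both targets among them, Amotl1 and Amotl2, did not pass. Amotl2 (ENSMUSG00000032531) stood at 50.0, 18.4 and 122.6 CPM in wild type and 23.0, 39.0 and 22.6 CPM in null tumours. Its wild-type values were widely spread and enclosed the null values. Wild-type library 2, the lowest, had 3 reads (95% exact Poisson interval 3.8 to 53.9 CPM). The log2 fold change was -1.39 (SE 0.42, edgeR adjusted p = 0.0671) and -0.54 without wild-type library 3 (0.464). The test called it lower without wild-type library 1 (0.0401), wild-type library 2 (0.0416) or null library 2 (0.048) and with both pairs summed (0.0381). Amotl1 (ENSMUSG00000013076) stood at 75.0, 98.3 and 110.0 CPM in wild type and 59.0, 80.7 and 80.3 CPM in null tumours, overlapping groups with a log2 fold change of -0.35 (95% interval -0.90 to 0.20, edgeR adjusted p = 0.403).

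Amot, the third angiomotin and no member of the target list, rose. It stood at 46.8, 24.6 and 45.0 CPM in wild type and 134.5, 123.1 and 124.3 CPM in null tumours. All null values lay far above all wild-type values. The rise was 2.96-fold (log2 fold change 1.57, SE 0.26, edgeR adjusted p = 0.00446) and passed in all 15 alternative fits. The difference between Amot and its relatives was not tested.

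Lats2 (ENSMUSG00000021959), the kinase that phosphorylates YAP and is itself induced by it, stood at 44.5, 12.3 and 37.3 CPM in wild type and 26.7, 35.5 and 36.2 CPM in null tumours. The lowest value came from 2 reads of wild-type library 2, and the groups overlapped. Its log2 fold change was -0.13 (95% interval -0.79 to 0.52, edgeR adjusted p = 0.813).

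**Figure D3:**
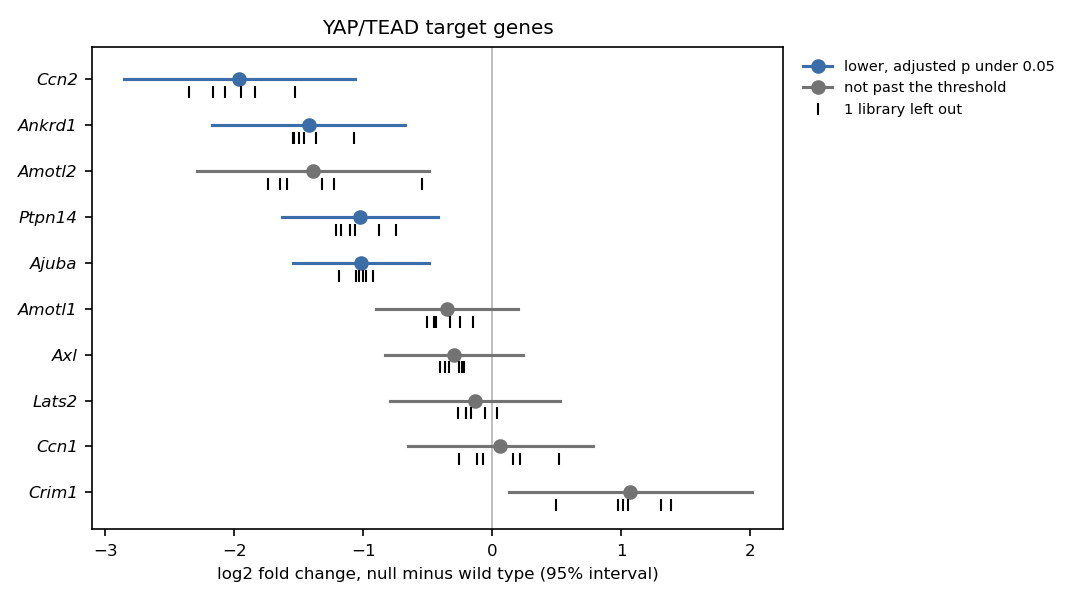
Log2 fold change of each target (points, x axis, null minus wild type) with its 95% interval (lines) derived from the edgeR test, and the values with 1 library left out (black ticks). Blue marks the 4 genes that passed, from -1.96 for Ccn2 to -1.02 for Ajuba, and the ticks of these 4 all lie below 0.

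Levels can be compared between genes only per length, so CPM was divided by kilobases of merged exons. On this scale the wild-type order was Axl (79.1 ± 8.71, SD, n = 3), Ccn1 (73.8 ± 33.6), Ccn2 (33.9 ± 4.41), Ajuba (23.9 ± 1.27), Amotl2 (10.1 ± 8.49), Amotl1 (9.38 ± 1.77), Ankrd1 (6.93 ± 2.75), Ptpn14 (6.67 ± 1.57), Lats2 (4.5 ± 2.43) and Crim1 (3.23 ± 2.57). The ranges of Axl and Ccn1 overlapped, as did those of all neighbours from Amotl2 downwards, whereas Ccn1 and Ccn2, Ccn2 and Ajuba, and Ajuba and Amotl2 were apart. In null tumours Ccn1 (81.8 ± 27.7) and Axl (64 ± 5.37) again led, with overlapping ranges. Ccn2 (8.99 ± 5.12) had come below Ajuba (11.4 ± 2.06), although their ranges overlapped. Ankrd1 (2.84 ± 0.534) and Ptpn14 (3.29 ± 0.909) were lowest, also overlapping. Merged exon lengths come from a later annotation than the reads may have used, and the order is given for that annotation.

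The factors that act on these targets were then compared. Yap1, the coactivator itself, stood at 67.2, 43.0 and 88.9 CPM in wild type and 102.3, 89.6 and 86.6 CPM in null tumours, with overlapping groups (log2 fold change 0.35, 95% interval -0.22 to 0.91, edgeR adjusted p = 0.42). Wwtr1, encoding TAZ, stood at 116.3, 73.7 and 36.9 CPM in wild type and 188.8, 104.2 and 138.5 CPM in null tumours (log2 fold change 0.95, edgeR adjusted p = 0.153). It also overlapped between groups, and the test called it higher in 1 of 15 alternatives, the fit that left out wild-type library 1 (1.66, edgeR adjusted p = 0.0326). Tead2 was the TEAD gene that passed, and it fell 2.49-fold. It stood at 32.8, 49.1 and 36.1 CPM in wild type and 6.45, 17.3 and 16.9 CPM in null tumours, groups that did not overlap (log2 fold change -1.32 with an SE of 0.35, edgeR adjusted p = 0.0446). The call of Tead2 was lost in 7 of 15 alternatives. Without wild-type library 2 or 3 the edgeR adjusted p was 0.0707 or 0.121, without null library 1, 2 or 3 it was 0.0981, 0.0588 or 0.0956, and with both pairs or the wild-type pair summed it was 0.064 or 0.0674. Tead1, Tead3 and Tead4 stood at log2 fold changes of -0.42, -0.48 and -1.07 and did not pass (edgeR adjusted p = 0.601, 0.298 and 0.242).

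Among the 14 further published targets 13 were tested, 1 fell and 1 rose, with a median log2 fold change of -0.63. At an unadjusted p under 0.05, 7 of the 13 were lower and 2 higher, beside 13% and 12.1% of all tested genes. Ccdc80, a secreted matrix protein, fell 3.73-fold, from 95.3, 86.0 and 87.1 CPM in wild type to 17.5, 35.0 and 16.3 CPM in null tumours (log2 fold change -1.90, SE 0.31, edgeR adjusted p = 0.00485). Tgfb2, a TGF-beta ligand, rose 2.97-fold, from 16.4, 18.4 and 21.1 CPM to 60.8, 57.4 and 54.1 CPM (log2 fold change 1.57 with an SE of 0.26, edgeR adjusted p = 0.00545). Both genes had groups far apart and passed in all 15 alternative fits, so within this list 2 published targets changed in opposite directions.

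Hippo pathway regulators mostly did not pass, and neither did most tested genes, of which 5.79% were called by edgeR. At an unadjusted p under 0.05 the share of all tested genes was 25.1%. Of the kinase core Stk3, Stk4, Sav1, Lats1, Mob1a and Mob1b, 0 of 6 passed (edgeR), with 1 higher and 0 lower at an unadjusted p under 0.05 and 0 by DESeq2. Mob1a, a LATS activator, and the scaffold Sav1 had the highest log2 fold changes (0.81 and 0.22), and the kinases Stk4 and Lats1 the lowest (-0.41 and -0.26). Of 14 upstream regulators, which include Nf2, the Fat and Dachsous cadherins, Taok kinases and Frmd6, 1 rose, Amot, and 0 fell, with 1 lower at an unadjusted p under 0.05 and 0 lower by DESeq2. Of the TEAD cofactors Vgll1 to Vgll4, 2 were tested and 0 passed (edgeR; 1 higher at an unadjusted p under 0.05, 0 by DESeq2), with log2 fold changes of -0.39 for Vgll3 and 1.14 for Vgll4.

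**Figure D4:**
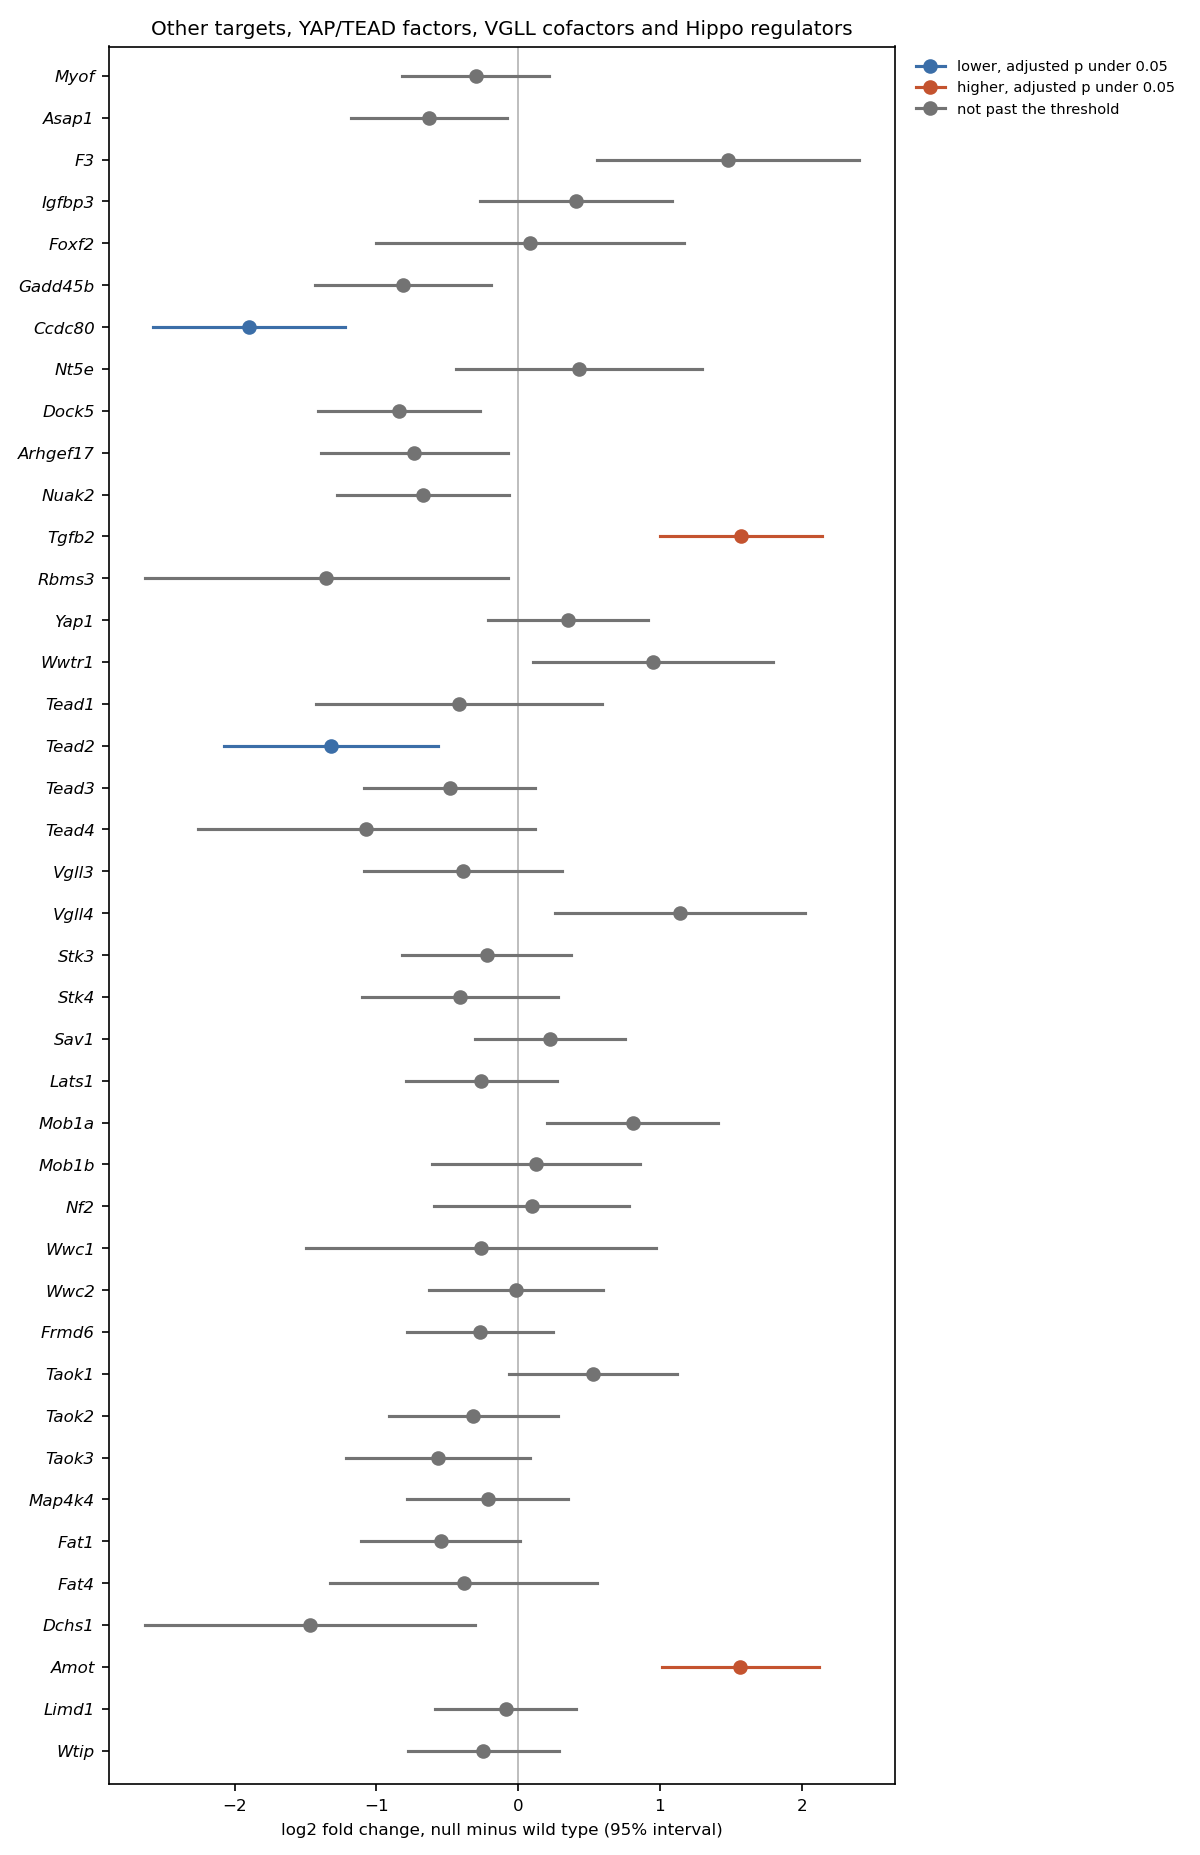
Log2 fold change (points, null minus wild type) with 95% interval (lines) for the tested genes of 5 lists, from top to bottom the further YAP/TAZ targets, the coactivators and TEAD genes, VGLL cofactors, the Hippo kinase core and its upstream regulators. Blue marks Ccdc80 and Tead2, which fell, red marks Tgfb2 and Amot, which rose, and grey marks genes that did not pass.

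SRF with its cofactors MRTF-A and MRTF-B is another actin-responsive pathway that shares several targets with YAP. Of 15 of its factors and cytoskeletal genes 14 were tested and 0 passed (edgeR), with 1 lower by DESeq2. At an unadjusted p under 0.05, 4 were lower and 1 higher, beside 25.1% of all tested genes in either direction. Tagln and Srf had the lowest log2 fold changes (-1.15 and -0.79, edgeR adjusted p = 0.104 and 0.0859), and Tpm4 and Actg1 the highest (0.78 and 0.08).

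Markers of other cells were read beside these results. Among all tested genes edgeR called 5.79%, with 3.52% called lower, and 25.1% were under an unadjusted p of 0.05. Of 8 fibroblast markers 2 rose and 2 fell, with summed levels of 6720 to 12300 CPM in wild type and 11930 to 14450 CPM in null tumours. Col3a1, which did not pass, made up 3036 to 7231 CPM of these sums in wild type and 6930 to 8193 CPM in null tumours. Of 8 endothelial markers 0 passed (edgeR; 0 also at an unadjusted p under 0.05 and 0 by DESeq2), with sums of 140 to 209 and 181.5 to 211 CPM. Of 6 tested pericyte and smooth muscle markers 2 fell and 0 rose, with sums of the 8 listed genes of 394.5 to 762 and 404 to 575 CPM. Of 8 macrophage markers 0 passed (edgeR; 1 higher at an unadjusted p under 0.05, 0 by DESeq2), with sums of 2988 to 5665 and 5435 to 7011 CPM. The adipocyte list had 4 of 6 genes tested and 3 lower, with sums of 97.1 to 251 and 43.5 to 94 CPM. Of 12 keratinocyte markers 8 were tested, 1 rose and 1 fell, with sums of 127 to 212 and 161 to 243 CPM. Itga6 alone gave 56.6 to 89.8 CPM of the former and 99.1 to 120.7 CPM of the latter. Krt8 varied within each group, at 35.92, 18.43 and 0.624 CPM with Kindlin-1 and 36.85, 0.0317 and 28.33 CPM without it. Each null value of Krt18 was below each wild-type value, but the gene did not pass (log2 fold change -1.01, edgeR adjusted p = 0.145). Whether keratinocyte content differed between the groups was not tested. Of 8 T and NK cell markers 5 were tested and 1 rose, Prf1, from 3.98 ± 4.84 to 48.2 ± 14 CPM (SD, n = 3). The T cell genes Cd3e, Cd3g and Cd8a were too low to be tested, and most of the summed level of that list (122.9 to 209.8 and 180.4 to 238.1 CPM) was Ptprc, which all leukocytes express. No listed marker was at 0 reads in all 6 libraries. Wild-type library 3 had the lowest wild-type sum of each list in this paragraph except T and NK cells, where its sum was highest. Its fibroblast sum was 6720 CPM, beside 12300 and 11200 CPM in wild-type libraries 1 and 2. For macrophages the sums were 2988 beside 5665 and 5664 CPM, and for pericytes and smooth muscle 394.5 beside 762 and 725 CPM. Fermt1 was highest in this library, at 64.9 beside 12.5 and 12.3 CPM. The part of these cells in the target results was not tested.

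**Figure D5:**
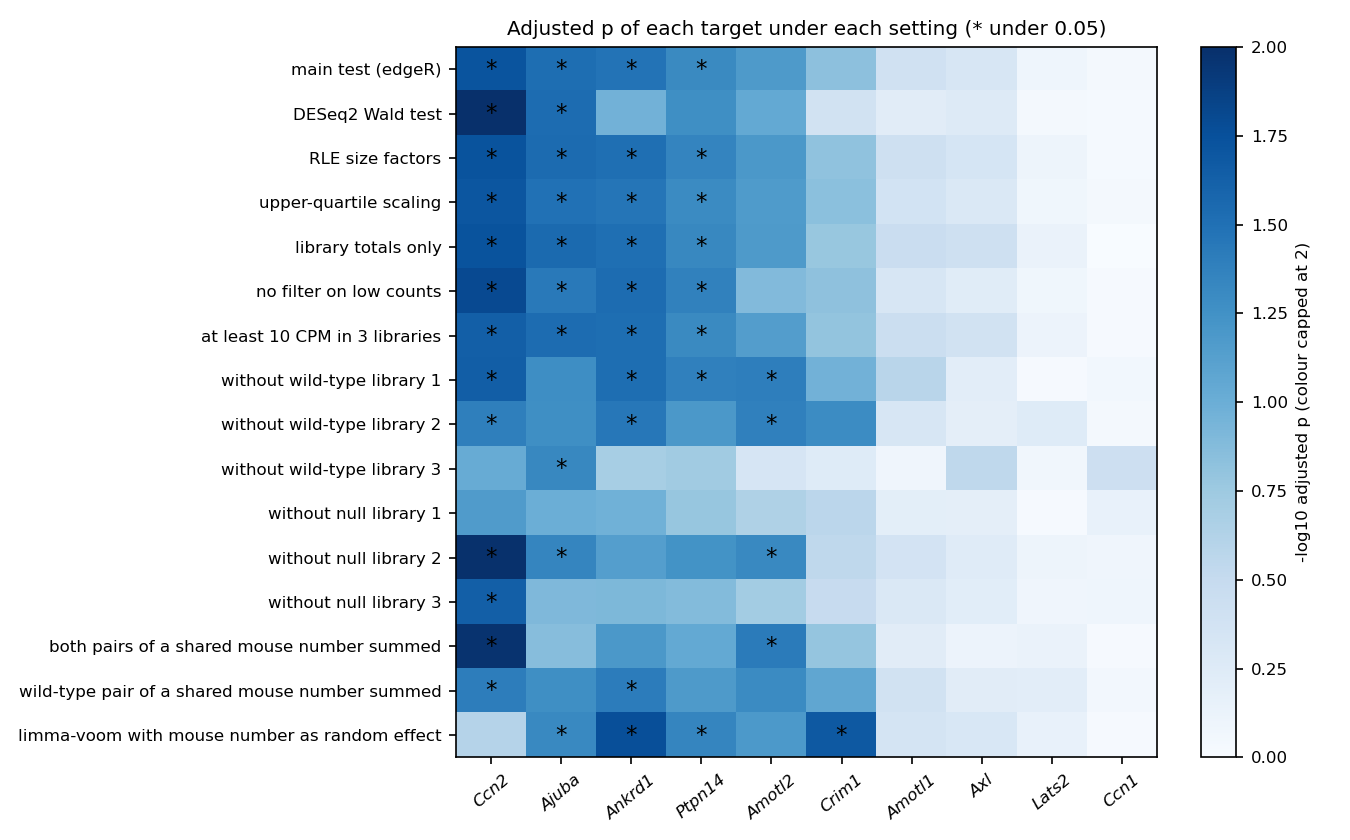
Adjusted p of the 10 targets (columns, ordered by the edgeR result) under the main test and 15 alternatives (rows), as -log10 with the colour capped at 2 and asterisks where it was under 0.05. Ccn2 passed in 12 of the 15 alternatives, Ankrd1 and Ajuba in 9 each and Ptpn14 in 7, while Ccn1, Lats2, Axl and Amotl1 passed in none.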

How the data were processed

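The authors deposited whole-number read counts per Ensembl gene, 1 file for each library and not normalized, as the values show. Per the submitters' processing notes TopHat2, Cuffdiff, DESeq2 and build mm9 were used, without versions or roles, and the sources used here do not name the counting program, strand setting or annotation. Lines for reads in no gene, ambiguous reads and reads with several alignments were left out, so that 46.2% to 60.5% of listed reads entered. The lowest share was that of wild-type library 3, where 12% of listed reads lay in no gene and 40% had several alignments. In the other libraries these were 4.63% to 8.75% and 32.9% to 36%. Symbols came from GENCODE M21 by identifier (32919 of 37991 matched).

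Null and wild type were compared with edgeR 4.0.16 (robust quasi-likelihood test, TMM scaling, default filter, Benjamini-Hochberg adjustment at 0.05 over 11887 genes) in R 4.3.3. Fold changes are null minus wild type. The edgeR test gives no SE, so the SE was derived as the absolute log2 fold change divided by the square root of the F statistic. Intervals of fold changes are 95%, from this SE and a t distribution. Poisson intervals are also 95% and cover counting error only. Merged exon lengths came from GENCODE. The script was tested on simulated data. Alternatives were DESeq2 1.42.0, other scalings and filters, each library left out, libraries of a shared mouse number summed, and mouse number as a random effect (limma 3.58.1, voom).

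The members and gene lists were chosen with earlier results of these data known. Named are all members, Fermt1, the coactivator and TEAD genes, pathway genes that passed, and otherwise the 2 highest and 2 lowest of a list; Limd1, Wtip, Des, single marker genes and the ratios were added after the values were seen.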

Additional observations from a re-analysis of the deposited data

How the results depend on the processing

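The number of genes called, 688, was 1156 in limma-voom with a random effect for the mouse, and between 179 and 855 with 1 library left out (edgeR). It was lowest without null library 1 (179), null library 3 (225) and wild-type library 3 (281). For the targets the count of 4 became 2 with DESeq2, 2 after summing both pairs of a mouse number and 2 after summing only the wild-type pair, and ranged from 0 to 4 with 1 library left out. In the other scalings and filters the same 4 targets were called, and limma-voom called Ankrd1, Ajuba and Ptpn14 lower and Crim1 higher. The sign of Ccn1 turned with library totals only (-0.0049), without wild-type library 1 (-0.12), wild-type library 2 (-0.071) or null library 1 (-0.26), after summing the wild-type pair (-0.093) and in limma-voom (-0.039); with 1 library left out it ranged from -0.26 to 0.52. That of Lats2 turned without wild-type library 1 (0.035). Neither gene passed in any fit, and the cause was not tested. The other 8 targets kept their direction in every alternative. No paired analysis was possible because the mouse numbers in the labels differ between the groups and the library numbers 1 to 3 only follow deposit order. Wild-type library 2 was the shallowest, with 161711 reads in genes: 3 reads there equal 18.6 CPM, and Ankrd1, Lats2 and Amotl2 had 2, 2 and 3 reads.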

Other observations

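Over all tested genes whose symbol had a promoter sequence, 1161 of 9177 (12.7%) held the TEAD core in the 250 bases before a start. Of the genes called lower in null tumours 63 of 297 (21.2%) held it, and of those called higher 23 of 202 (11.4%). These shares were counted after the values of the targets were seen and were not tested. The genes called lower include the targets Ankrd1, Ajuba and Ptpn14, which hold the core, and all 11 tested skeletal muscle markers. What part of the 21.2% such genes make up was not counted.

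For each read of Tead3 the wild-type libraries gave, in order, 0.894, 1.14 and 1.06 reads of Tead2 and the null ones 0.35, 0.592 and 0.614, so that no ratio overlapped between groups (exact permutation p = 0.1, two-sided, the smallest possible for 3 against 3). This ratio, chosen after the values were seen, restates that Tead2 fell further (log2 fold change -1.32) than Tead3 (-0.48), and is no separate result. The ratio of Wwtr1 to Yap1 overlapped between groups, at 1.73, 1.71 and 0.415 in wild type and 1.85, 1.16 and 1.6 in null tumours. That of Amotl2 to Amotl1 also overlapped, at 0.667, 0.188 and 1.11 in wild type and 0.391, 0.484 and 0.282 in null tumours.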
